A study of Mus musculus with 23 samples.

Results

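The mitochondrial ribosome builds the few proteins encoded by mitochondrial DNA, which are core subunits of the respiratory chain and of ATP synthase. Its protein subunits are all encoded in the nucleus, made in the cytosol and imported, and the genes are named Mrpl for the large subunit and Mrps for the small subunit. Doxycycline is a tetracycline antibiotic that binds the small subunit of bacterial ribosomes and is also known to slow translation in mitochondria. The genes described here were all rows of the expression tables whose symbol begins with Mrpl or Mrps followed by a digit, which gave 78 of 18412 genes. By the subunit in which the protein sits, 51 belong to the large subunit, including the proteins of Mrps18a and Mrps30, and 26 to the small subunit. The protein of Mrps36 is not a subunit of the mitochondrial ribosome. This rule reads the symbols alone. The 78 genes lie on 17 chromosomes of the mouse genome.

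RNA with polyA tails was sequenced with its strand kept, from mouse embryonic stem cells that were grown in serum with leukaemia inhibitory factor (LIF) on gelatin, and reads in exons and in introns of each gene were counted apart. Its 23 libraries form 11 groups in 3 series. The first series holds lines whose labels name no treatment, here called untreated lines. They are AB2.2 wild type (2 libraries), B9 (Blm-/-;Ago1,3,4-/-, 2 libraries), E7 (Blm-/-;Ago1,2,3,4-/-;CreERT2;hAgo2fl, 3 libraries) and the clones C62 and C86 (Blm-/-;Ago1,2,3,4-/-;CreERT2, 2 libraries). The other series used 1 engineered line, TT-FHAgo2 (Blm-/- and Ago1,2,3,4-/-, with CreERT2 and with the TT-FHAgo2 transgene), in which doxycycline switches on an Ago2 transgene, the Argonaute protein that carries microRNAs. In the withdrawal series these cells had 2.5 µg/mL doxycycline for 48 h (the 0 h group) and then none for 24, 48 or 96 h, with 2 libraries at each time. In the return series, cells propagated in 0.1 µg/mL doxycycline went 96 h without it (control), and 2 further groups then received 0.1 or 2.5 µg/mL for 48 h, with 2 libraries in each. In this design doxycycline itself and the transgene it controls cannot be told apart, and the groups also differ in hours of culture. The clones group joins 2 clones, and each other mutant line is a single line.

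Ago1 had 0 exon reads in every mutant library and 3514 and 4693 normalised reads in the wild-type libraries. The rows of Ago2, Ago3, Ago4 and Blm hold reads in all groups, so they check neither the deletions nor the switch. Ago4 was low even in wild type, at 7.82 and 48.1 normalised reads. The Ago2 row stood at 11759 and 12167 normalised reads at 0 h and 10771 and 10817 at 96 h. In the return series it stood at 7260 and 7300 in the controls, 7776 and 7672 with 0.1 µg/mL, and 6093 and 5284 with 2.5 µg/mL, lowest at the highest dose. The row does not separate the transgene from what remains of the gene, so Ago2 levels are taken from the labels alone. Exon reads per library ran from 32.9 M to 62.4 M (M, 1000000 reads) in the withdrawal series, from 24.7 M to 53.8 M in the return series and from 13.5 M to 53.7 M among the untreated lines. None of 8 embryonic stem cell markers was at 0 in any group. They summed to 457648 to 501053 normalised reads in the withdrawal series, and in the return series to 330758 to 333928 in the controls, 344701 to 354212 at 0.1 µg/mL and 378080 to 380488 at 2.5 µg/mL, where the sums of the mitochondrial ribosomal protein genes also rose with dose. Feeder fibroblast markers (8 genes) summed to 909 to 972 normalised reads at 0 h, 1527 to 1603 at 24 h, 1773 to 1877 at 48 h and 1402 to 1455 at 96 h. Their sum was highest at 48 h, when that of the mitochondrial ribosomal protein genes was lowest, and in the return series it was 823 to 883 in the controls, 653 to 751 at 0.1 µg/mL and 693 to 835 at 2.5 µg/mL. Most of that sum was Fbln1, and the collagen genes Col3a1 and Col1a2 were both at 0 after 48 h and 96 h. Fbln1 (0.64) and Thy1 (0.34) were higher at 96 h on the log2 scale. At 2.5 µg/mL they went opposite ways, Fbln1 lower (-0.44) and Thy1 higher (1.57). Primitive endoderm markers (8 genes) summed to 10813 to 13640 in the withdrawal series, most of it Lama1, a gene of basement membrane. By gene, Utf1 and Zfp42 were lower and Nanog and Sox2 higher at 96 h, and of the endoderm markers Sox7 and Dab2 were lower and Gata4 and Col4a1 higher. At 2.5 µg/mL Utf1 (1.06), Esrrb (0.57), Sox7 (1.94) and Dab2 (1.83) were higher on the log2 scale, and Sox2 (-0.17), Gata4 (-0.86) and Pdgfra (-1.25) were lower. Among the untreated lines, stem cell marker sums were 193280 and 193804 in wild type and 269458 and 275300 in B9. They were 204451 and 287680 in the clones, and 287346 on average in E7. Feeder marker sums were 747 and 1135 in wild type, 612 and 752 in B9, and 565 and 1773 in the clones. In E7 they ran from 475 to 595. The part of these cells in the results below was not tested. Bulk RNA cannot separate fewer cells of a type from less RNA per cell.

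Promoter sequences of 69 of the 78 genes were found in RefSeq (GRCm38.p6, the same assembly as the mm10 build of the files). The 5 printed here are examples from both directions and were not taken by size of change. Mrpl18, Mrpl33 and Mrpl36 were lower without doxycycline and higher with it, while Mrpl32 and Mrps22 went the other way. Each of the 5 holds a searched motif. Mrpl12, which changed more than Mrpl36, holds none of them and is not printed. Each run covers 250 bases before a start of transcription and 20 from it, on the strand of the gene, with matches to searched motifs in capitals. For Mrpl18 and Mrpl36 the start used lies inside the RefSeq span of the gene, not at its edge.
Mrpl18: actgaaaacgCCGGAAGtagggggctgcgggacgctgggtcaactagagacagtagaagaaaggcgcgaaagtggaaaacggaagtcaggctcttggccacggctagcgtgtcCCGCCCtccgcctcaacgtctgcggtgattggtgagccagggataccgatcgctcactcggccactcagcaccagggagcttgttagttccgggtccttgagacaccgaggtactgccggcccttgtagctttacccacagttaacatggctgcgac
Mrpl33: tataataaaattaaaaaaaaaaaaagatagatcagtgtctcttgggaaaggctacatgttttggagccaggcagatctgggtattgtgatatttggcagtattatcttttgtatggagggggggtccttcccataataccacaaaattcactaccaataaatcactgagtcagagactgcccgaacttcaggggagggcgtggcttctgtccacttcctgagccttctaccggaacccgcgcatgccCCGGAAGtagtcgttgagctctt
Mrpl36: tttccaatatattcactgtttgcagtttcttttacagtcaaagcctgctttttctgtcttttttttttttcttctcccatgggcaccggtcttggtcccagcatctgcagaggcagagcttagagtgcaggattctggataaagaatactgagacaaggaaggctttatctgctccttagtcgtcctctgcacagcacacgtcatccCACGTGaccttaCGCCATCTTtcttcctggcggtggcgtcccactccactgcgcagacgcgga
Mrpl32: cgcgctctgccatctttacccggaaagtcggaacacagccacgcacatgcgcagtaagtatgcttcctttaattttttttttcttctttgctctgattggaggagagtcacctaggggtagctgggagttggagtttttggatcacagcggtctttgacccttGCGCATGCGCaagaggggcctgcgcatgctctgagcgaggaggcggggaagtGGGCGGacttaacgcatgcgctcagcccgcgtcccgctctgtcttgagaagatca
Mrps22: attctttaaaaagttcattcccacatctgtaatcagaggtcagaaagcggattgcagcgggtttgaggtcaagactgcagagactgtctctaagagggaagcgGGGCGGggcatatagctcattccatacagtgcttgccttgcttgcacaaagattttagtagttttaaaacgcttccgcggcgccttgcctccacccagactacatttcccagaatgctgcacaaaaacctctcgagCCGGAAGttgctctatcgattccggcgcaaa
The Mrpl18 run is chr17:12916072-12916341 on the minus strand, and its capitals mark a motif of ETS factors (CCGGAAG) and one of Sp factors (GGGCGG, reverse). The Mrpl33 run is chr5:31613701-31613970 on the plus strand and holds the ETS motif across the start. The Mrpl36 run is chr13:73330759-73331028 on the plus strand, with an E-box (CACGTG, the motif of Myc and related factors) and a YY1 motif (AAGATGGCG, reverse). The Mrpl32 run is chr13:14613018-14613287 on the minus strand, with a motif of nuclear respiratory factor 1 and one of Sp factors. The Mrps22 run is chr9:98601660-98601929 on the minus strand, with the ETS and Sp motifs.

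Motifs were searched on both strands in windows of 300 bases (250 before and 50 from the start), and a match describes letters, not a bound site. Shares of members count genes, and a member with several promoters counts once if any of them holds the motif. The ETS motif was in 37.7% of the 69 members and in 9.93% of all 27025 promoters. It was in 18.8% of the 10537 promoters of genes with enough reads to be tested. The YY1 motif was in 11.6% of members, 1.64% of all promoters and 3.30% of those of tested genes. The E-box was in 7.25% of members, 8.09% of all promoters and 11.6% of those of tested genes. The Sp motif was in 49.3% of members, 38.2% of all promoters and 68.9% of those of tested genes. For the nuclear respiratory factor 1 motif these shares were 4.35%, 1.07% and 2.23%. Among the 46 members with a promoter that were lower at 96 h and higher at 2.5 µg/mL, 41.3% held the ETS motif, against 30.4% of the 23 other members. The other motifs were less frequent in the 46 than in the 23, at 45.7% against 56.5% for Sp, 10.9% against 13% for YY1, 4.35% against 13% for the E-box and 2.17% against 8.70% for nuclear respiratory factor 1. The smallest of these shares rest on 1 to 5 members, and none of the differences was tested. Mrpl33 and Mrps22, which moved in opposite directions, both hold the ETS motif, and Mrpl36 and Mrpl32, also opposite, do not.

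Before any change is described, the members differ widely in level. Per kilobase of exon, the median over the 78 genes in the 0 h cells was 1832 normalised reads, against 399.7 over all genes tested and 32730 for the cytosolic ribosomal proteins. Mrpl18, which sits in the large subunit beside its ribosomal RNA, was highest at 5734 ± 602 per kilobase (SD, n = 2). Mrpl12, the stalk protein that receives translation factors, followed at 5133, then Mrps18b at 3939 and Mrps24 at 3878. Mrps25 was lowest at 264 ± 3.32 (SD, n = 2), with Mrps18c at 270, Mrpl41 at 317 and Mrpl1 at 464. The members are also short: their median exon length was 1052.5 bases, against 2953.5 for all genes tested.

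Read levels below are exon reads divided by the authors' size factor for the library, and each library of a group is given. Changes are log2 differences of normalised reads plus 1, from limma fitted over all groups of a table, and calls are made at an adjusted p (Benjamini-Hochberg, over all genes tested) below 0.05. All 78 members had enough exon reads to be tested in every series.

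Summed over the 78 genes, the 0 h libraries had 185387 and 186984 normalised reads, the 24 h libraries 167360 and 165346, the 48 h libraries 142085 and 139445, and the 96 h libraries 151015 and 148594. The sums at different times did not overlap, and the lowest stood at 48 h. As a share of all exon reads the members took 0.384% at 0 h, 0.347% at 24 h, 0.300% at 48 h and 0.317% at 96 h. In the return series the sums were 107054 and 106659 in the controls, 126933 and 126150 with 0.1 µg/mL, and 143325 and 143130 with 2.5 µg/mL, again without overlap. The shares were 0.312%, 0.362% and 0.405%. Among the untreated lines the sums were 115929 and 98559 in wild type, 123843 and 93525 in B9, 109125, 91734 and 81154 in E7, and 82166 and 84368 in the clones. Wild type, B9 and E7 overlapped, and in each of them the deepest library had the highest sum. Both clone libraries lay below both wild-type and both B9 libraries, but within the range of the E7 libraries.

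**Figure D1:**
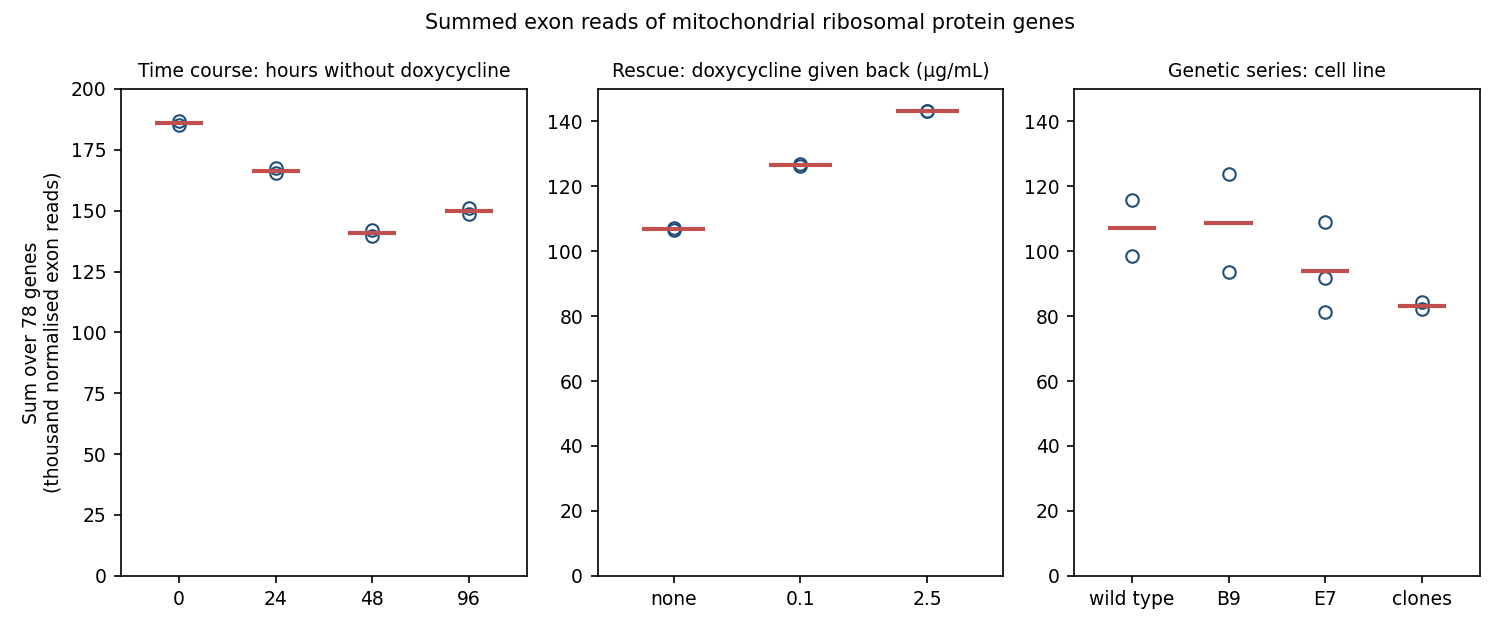
Summed exon reads of the 78 mitochondrial ribosomal protein genes (normalised reads in units of 1000, y axis) in each library, by group (x axis), in the withdrawal series, the return series and the untreated lines. Points are libraries and bars are group means; within the withdrawal series the sum was lowest at 48 h (142085 and 139445 reads), and within the return series it was highest at 2.5 µg/mL (143325 and 143130 reads). Panels have their own y axes.

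The first comparison asks how these genes differ once doxycycline is taken away. At 24 h, 36 of the 78 members were lower than at 0 h and 4 were higher, where 24.1% of the 13652 genes tested were lower and 26.5% higher. At 48 h, 63 were lower and 1 higher, against 31.2% and 32.1% of all genes. At 96 h, 61 were lower and 3 higher, against 32.5% and 32.4% of all genes. The median log2 change of the members was -0.15 at 24 h, -0.47 at 48 h and -0.31 at 96 h, beside -0.01 over all genes at 96 h. These 3 comparisons share the 0 h libraries. At 96 h, 45 of the 51 large-subunit genes and 16 of the 26 small-subunit genes were lower, and 1 and 2 were higher.

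By origin, 26 of the 29 large-subunit genes with a bacterial counterpart fell at 96 h and 1 rose, with a median change of -0.36. Of the 22 large-subunit genes particular to mitochondria 19 fell and 0 rose, with a median of -0.28. In the small subunit, 8 of 16 genes with a bacterial counterpart fell and 1 rose (median -0.35), and 8 of 10 mitochondria-specific genes fell and 1 rose (median -0.27). No test of the difference between these classes was made.

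Exon length moved with this result. Short genes were lower as a whole without doxycycline: among genes other than the members, the median change at 96 h was -0.26 for exon lengths under 1000 bases, -0.10 from 1000 to 2000 and 0.04 above. In the same bands the members' medians were -0.39 (33 genes), -0.30 (33 genes) and -0.25 (12 genes). With each library centred within bins of exon length, an alternative chosen after seeing the data, 49 members were lower and 11 higher at 96 h, with a median of -0.25. On that scale the counts were 28 lower and 9 higher at 24 h, and 47 lower and 7 higher at 48 h. All shares of all genes given in this report come from fits without length centring. Counts with length centring, here and below, therefore have no such share beside them. In each band the members' median stood below that of the other genes, and no test of that gap was made. The share called lower at 96 h was 72.7%, 81.8% and 83.3% of members in the 3 bands, and 48.4%, 37.2% and 29.5% of other genes.

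**Figure D2:**
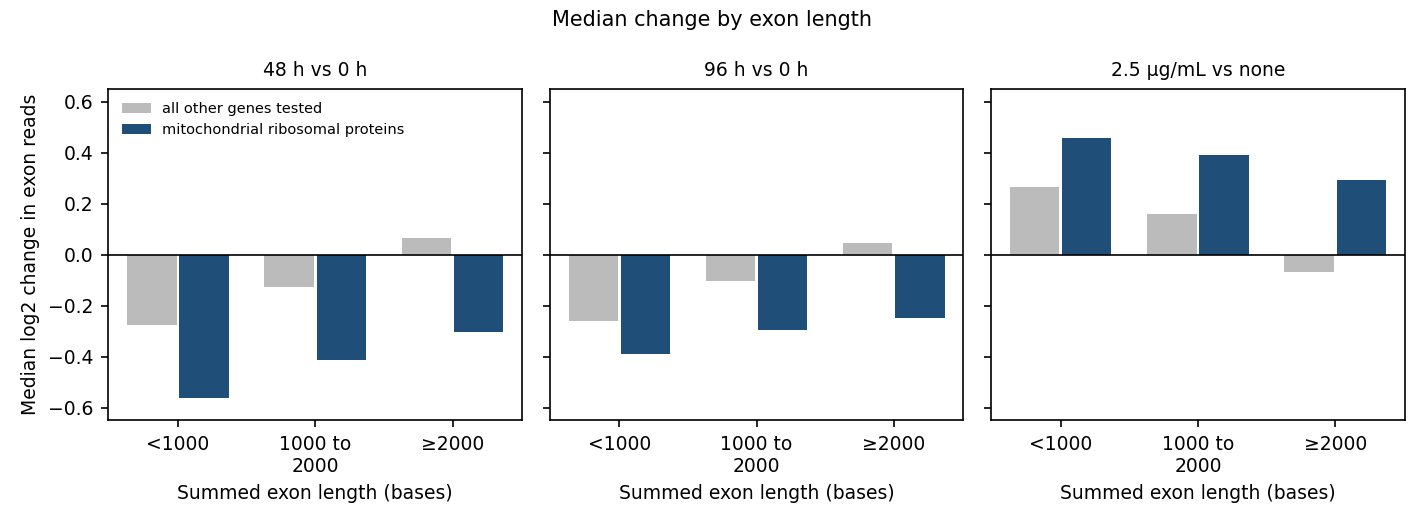
Median log2 change (y axis) of the mitochondrial ribosomal protein genes and of all other tested genes in 3 bands of exon length (x axis, bases), for 48 h and 96 h without doxycycline against 0 h and for 2.5 µg/mL returned against none. Bars are medians with no error bar; at 96 h the members stood at -0.39, -0.30 and -0.25 and the other genes at -0.26, -0.10 and 0.04.

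Mrpl18 had 5090 and 5907 normalised reads in the 0 h libraries, 4158 and 4190 after 24 h, 2632 and 2696 after 48 h, and 2857 and 2543 after 96 h. Both libraries at each later time lay below both at 0 h, and 48 h overlapped with 96 h. The log2 change at 96 h was -1.02 ± 0.064 (SE, n = 2 against 2), with an adjusted p of 1.7e-12 by limma. Mrpl12 had 4856 and 4886 reads at 0 h, 3568 and 3490 after 24 h, 2481 and 2328 after 48 h, and 2533 and 2373 after 96 h. Its change at 96 h was -0.99 ± 0.055 (limma adjusted p 1.95e-13), and it too had most of its change by 48 h.

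Mrpl55, a large-subunit protein with no bacterial counterpart, had 730 and 768 reads at 0 h, 419 and 447 after 24 h, 328 and 306 after 48 h, and 385 and 344 after 96 h. It was already lower at 24 h by a log2 change of -0.79, and the change at 96 h was -1.04 ± 0.114 (limma adjusted p 2.93e-08). Mrpl33, a small protein of the large subunit, had 810 and 678 reads at 0 h, 672 and 644 after 24 h, 397 and 355 after 48 h, and 411 and 409 after 96 h. Its groups at 0 h and 24 h lay close, and its change at 24 h (-0.17) was not called, whereas at 96 h it was -0.85 ± 0.111 (limma adjusted p 4.01e-07). Mrpl13 completes the 5 members with the largest falls at 96 h, with 1455 and 1391 reads at 0 h and 787 and 821 after 96 h, a change of -0.82 ± 0.087.

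The 3 members that rose at 96 h were Mrpl32, Mrps22 and Mrps2. Mrpl32 is a large-subunit protein that the m-AAA protease of the inner membrane trims before assembly. It had 1579 and 1444 reads at 0 h, 2025 and 1821 after 24 h, 1984 and 1839 after 48 h, and 1999 and 2239 after 96 h. Every later library stood above both 0 h libraries, and the change at 96 h was 0.49 ± 0.073 (limma adjusted p 3.56e-06). Mrps22, a small-subunit protein particular to mitochondria, had 1269 and 1322 reads at 0 h, 1480 and 1504 after 24 h, 1350 in each 48 h library, and 1551 and 1594 after 96 h. Its change at 96 h was 0.28 ± 0.067 (limma adjusted p 0.000885), and its change at 48 h of 0.06 was not called. Mrps2, which joins the head of the small subunit, had 6782 and 6991 reads at 0 h and 7588 and 7828 after 96 h, a change of 0.16 ± 0.046 (limma adjusted p 0.0036). On the length-centred scale these 3 stood at 0.75, 0.38 and 0.26.

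The members set by role gave a range of values. Mrps12, which lines the decoding centre, had 2018 and 2187 reads at 0 h and 2141 and 1985 after 96 h, and its changes of 0.01, -0.05 and -0.03 at the 3 times were not called; on the length-centred scale its 96 h value was 0.23. Mrps7 fell at 24 h and 48 h (-0.27 and -0.23) and stood at 0.07 at 96 h, which was not called. Mrps5 rose at 24 h, by 0.21, and stood at 0.05 and 0.01 later, not called. Mrpl11, of the factor-binding region, fell later than most: its change was -0.11 at 24 h, not called, then -0.54 and -0.76. Mrpl58, the peptidyl-tRNA hydrolase built into the large subunit, fell by 0.44, 0.61 and 0.50 on the log2 scale. Mrpl10, which anchors the stalk, fell by 0.25, 0.45 and 0.51, and Mrpl23, beside the exit of the tunnel for new protein, by 0.69 and 0.74 after 48 h and 96 h. Its 96 h libraries lay apart, at 360 and 235 reads, and the 96 h change was -1.05 without library 1 and -0.44 without library 2. Mrpl44 had 2181 and 2051 reads at 0 h and 1943 and 1889 after 96 h, a called change of -0.14. Mrpl41 fell at 24 h by 0.30 and was not called later, at -0.16 and -0.10. The 3 paralogs of bacterial S18 stood at -0.25 (Mrps18a), -0.29 (Mrps18b) and -0.41 (Mrps18c, not called) at 96 h, and Mrps18a was at 0.0057 on the length-centred scale. Mrps30 fell by 0.16. The small calls at 96 h hung on single libraries: those of Mrps30 and Mrps35 were lost without 96 h library 2 (-0.11 and -0.15), that of Mrps18a without it (-0.19) or without 0 h library 2 (-0.23), and that of Mrpl44 without any 1 library other than 0 h library 2 (-0.16 to -0.098). The 6 members called at no time after withdrawal were Mrpl14, Mrpl22, Mrps6, Mrps12, Mrps18c and Mrps36, and Mrpl14 and Mrps6 were called in no exon comparison of any series.

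Between neighbouring times most falls lay before 48 h. From 24 h to 48 h, 54 members fell and 0 rose, with a median of -0.28, where 18.8% of all genes fell and 20.2% rose; Mrpl47, at 0.03 at 24 h, fell by 0.65 over that step. With length centring 37 fell and 5 rose. From 48 h to 96 h, 18 rose and 3 fell, with a median of 0.11, where 20.1% of all genes rose and 16.3% fell. That later split was not stable: it was 13 to 6 with libraries centred on the median gene, 8 to 7 with length centring, and 9 members rose without 48 h library 2. Mrps34, a mitochondria-specific protein of the small subunit, was among those that rose. It had 1607 and 1541 reads at 0 h, 1018 and 936 after 24 h, 853 and 800 after 48 h, and 1255 and 1126 after 96 h. Its change from 48 h to 96 h was 0.52, and both 96 h libraries lay between the 48 h and the 0 h libraries. Mrps15 also went up over that interval, by 0.49, and Mrpl17 by 0.43, and Mrpl11 fell further, by 0.23.

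**Figure D3:**
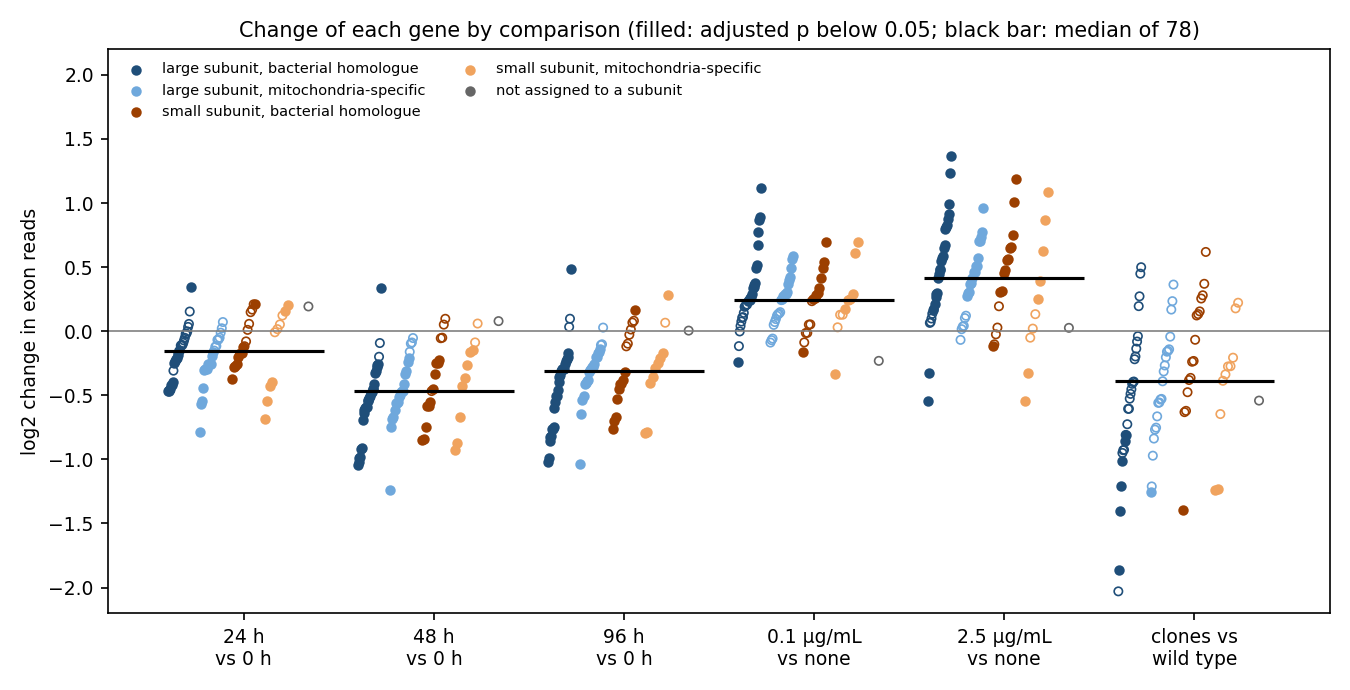
Log2 change in exon reads of each of the 78 mitochondrial ribosomal protein genes (y axis) in 6 comparisons (x axis), coloured by subunit and origin; filled points are called and black bars are medians. Without doxycycline most points are below 0 (61 called lower at 96 h), with doxycycline returned most are above it (54 called higher at 2.5 µg/mL), and in the clones 10 are called lower.

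The second comparison asks whether the genes differ again when doxycycline is returned for 48 h. At 0.1 µg/mL, 43 members were higher than in the controls and 3 lower, where 22% of 13176 genes tested were higher and 22.1% lower. The 3 lower members became 1 when either control library was left out. At 2.5 µg/mL, 54 were higher and 5 lower, against 31.8% and 32% of all genes. The median log2 change was 0.24 at the lower dose and 0.42 at the higher, and the 2 doses share their control libraries. With 1 library left out these medians ran from 0.22 to 0.25 and from 0.40 to 0.45. The number called higher at 0.1 µg/mL could then be smaller. In the large subunit 38 of 51 genes were higher at 2.5 µg/mL and 2 lower, and in the small subunit 16 of 26 were higher and 3 lower. With length centring 41 were higher and 10 lower at 2.5 µg/mL, with a median of 0.24, and 37 and 5 with 0.1 µg/mL, with a median of 0.17.

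Short genes outside the list were higher with doxycycline too. At 2.5 µg/mL the medians of the other genes were 0.27, 0.16 and -0.07 in the 3 length bands, beside 0.46, 0.39 and 0.29 for the members. By origin, 22 of 29 large-subunit genes with a bacterial counterpart rose and 2 fell (median 0.48), 16 of 22 mitochondria-specific large-subunit genes rose and 0 fell (0.40), 11 of 16 small-subunit genes with a bacterial counterpart rose and 1 fell (0.47), and 5 of 10 mitochondria-specific small-subunit genes rose and 2 fell (0.19).

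Mrpl18 had 1999 and 1495 reads in the control libraries, 3676 and 3820 with 0.1 µg/mL, and 4403 and 4496 with 2.5 µg/mL. The 3 groups did not overlap, and the change at 2.5 µg/mL was 1.36 ± 0.080 (SE, n = 2 against 2; limma adjusted p 4.05e-14). Mrpl12 had 1611 and 1622 reads in the controls, 2732 and 2803 with 0.1 µg/mL, and 3834 and 3786 with 2.5 µg/mL, a change of 1.24 ± 0.058 at the higher dose (limma adjusted p 3.42e-16). Mrps24, which holds the place of bacterial S3 at the messenger RNA entry, had 1533 and 1538 reads in the controls, 2143 and 2182 with 0.1 µg/mL, and 3575 and 3435 with 2.5 µg/mL. Its change of 1.19 ± 0.061 (limma adjusted p 1.99e-15) was the largest rise in the small subunit at that dose.

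Mrps26, a mitochondria-specific small-subunit protein, had 756 and 701 reads in the controls, 1193 and 1163 with 0.1 µg/mL, and 1544 and 1549 with 2.5 µg/mL, a change of 1.09 ± 0.080 at 2.5 µg/mL. Mrps17 had 997 and 959, 1561 and 1604, and 2030 and 1911 in the same groups, a change of 1.01 ± 0.072. These 5 genes, named because they rose most at 2.5 µg/mL, showed the 3 groups apart and in the order of dose. Other members did not: Mrpl33 had 432 and 537 reads with 0.1 µg/mL and 524 and 417 with 2.5 µg/mL. Genes with groups in the order of dose were not counted, among the members or over all genes. Mrps12, which had not been called after withdrawal, had 1321 and 1232 reads in the controls, 1513 and 1523 with 0.1 µg/mL, and 1756 and 1744 with 2.5 µg/mL, and its changes of 0.25 and 0.46 were both called.

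The 5 members that fell at 2.5 µg/mL were Mrps22, Mrpl3, Mrps35, Mrpl32 and Mrps2. Mrps22 had 1336 and 1250 reads in the controls, 1033 and 1023 with 0.1 µg/mL, and 797 and 980 with 2.5 µg/mL, a change of -0.55 ± 0.091 at the higher dose (limma adjusted p 7.51e-06). Mrpl3, which lies near the peptidyl transferase centre, had 1147 and 1116 reads in the controls, 1063 and 1201 with 0.1 µg/mL, and 853 and 708 with 2.5 µg/mL. It overlapped with the controls at the lower dose and fell by 0.54 ± 0.093 at the higher (limma adjusted p 1.31e-05). Mrpl32 had 1674 and 1833 reads in the controls, 1460 and 1499 with 0.1 µg/mL, and 1363 and 1440 with 2.5 µg/mL, a change of -0.32 ± 0.072 (limma adjusted p 0.00033). Mrps35 fell by 0.33 ± 0.078, and Mrps2 by 0.12 (limma adjusted p 0.0398), a call lost without either control library or without 2.5 µg/mL library 2 (-0.084). Mrpl3 and Mrps35 had also fallen at 96 h after withdrawal, by 0.30 and 0.21.

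Between the doses, 33 members were higher at 2.5 than at 0.1 µg/mL and 3 lower, where 20% of all genes were higher and 21% lower, and the median difference was 0.16. With length centring 20 were higher and 9 lower, with a median of 0.06. With any 1 library left out fewer members were called higher, and the median ran from 0.15 to 0.17. Without 2.5 µg/mL library 2, 6 were lower in place of 3. Mrps27 was one of the lower genes, at -0.23, and Mrpl10 and Mrps30 were higher, at 0.43 and 0.37. Mrps34 stood 0.24 above control at 0.1 µg/mL and 0.13 at 2.5 µg/mL, where it was not called, while Mrpl12 stood at 0.78 and 1.24.

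The withdrawal and return series share no libraries. Of the 61 members lower at 96 h, 50 were higher at 2.5 µg/mL, which is 82.0% of them, where 3198 of 4366 genes lower at 96 h (73.2%) were higher at that dose over all genes tested in both series. The 50 members are 37 of the 45 lower large-subunit genes and 13 of the 16 lower small-subunit genes. At 0.1 µg/mL, 42 of the 61 (68.9%) were higher, beside 2572 of 4366 genes (58.9%). The 3 members that had risen at 96 h were lower at both doses. Over all genes, 3230 of 4368 that were higher at 96 h were lower at 2.5 µg/mL, and 2600 of 4368 at 0.1 µg/mL.

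**Figure D4:**
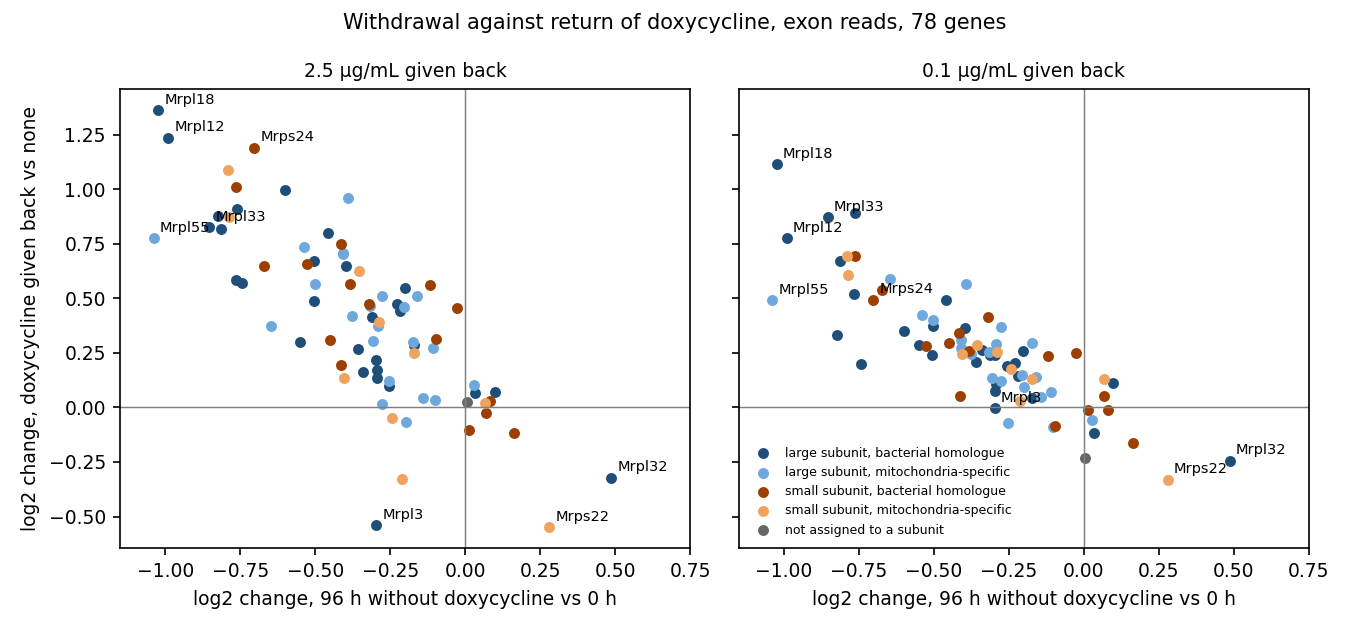
Log2 change after 96 h without doxycycline (x axis) against log2 change after its return (y axis) at 2.5 µg/mL (left) and 0.1 µg/mL (right), with 1 point for each of the 78 genes. Most points lie in the upper left, where genes were lower without doxycycline and higher with it (50 called both ways at 2.5 µg/mL), and Mrpl32, Mrps22 and Mrps2 lie in the lower right.

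The third comparison uses the untreated lines, whose labels name no doxycycline. Against wild type, B9 had 0 members called in either direction by limma, with 1 at an unadjusted p below 0.05, 0 by voom and a median change of -0.02 that ran from -0.19 to 0.24 with 1 library left out, where 0.0685% of 13142 genes tested were called. E7 had 0 called, with 6 at an unadjusted p below 0.05, 0 by voom and a median of -0.22, where 4.56% of all genes were called. That median was -0.11 without wild-type library 1, -0.14 without E7 library 3 and -0.35 without E7 library 1. The clones had 10 members lower and 0 higher, with a median of -0.39, where 7.72% of all genes were lower and 10.9% higher. The clones against E7 had 0 called by limma and by voom, with 12 at an unadjusted p below 0.05 and a median of -0.14, where 1.51% of all genes were called. In that last comparison 9 members were lower and 3 higher without clones library 1, and the median was -0.051 without E7 library 1 and -0.26 without E7 library 3.

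The 10 members lower in the clones were Mrpl15, Mrpl18, Mrpl20, Mrpl24, Mrpl33, Mrpl36, Mrpl40, Mrps17, Mrps23 and Mrps33. Their number hung on single libraries: it was 1 without either wild-type library, 2 without clones library 2, 6 without E7 library 2 and 17 without clones library 1. Mrps17 had 2090 and 1917 reads in wild type and 698 and 830 in the clones, a change of -1.39 ± 0.236 (SE; limma adjusted p 0.00355). Mrpl18 had 4127 and 3136 reads in wild type, 5071 and 2917 in B9, 3775, 1863 and 1859 in E7, and 1478 and 658 in the clones. The clone libraries lay below all others, and the change against wild type was -1.87 ± 0.449 (limma adjusted p 0.0172). Mrpl33 had 410 and 433 reads in wild type and 219 and 115 in the clones, a change of -1.40 ± 0.365 (limma adjusted p 0.0241). Mrpl12 had 3676 and 3241 reads in wild type and 1470 and 2236 in the clones, a change of -0.93 that was not called (limma adjusted p 0.0854).

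All 10 were also lower at 96 h after withdrawal and higher at 2.5 µg/mL. Over all genes the shares were 821 of 999 genes lower in the clones (82.2%) that were lower at 96 h, and 763 of 981 (77.8%) that were higher at 2.5 µg/mL. The median standard error of a member's log2 change was 0.324 for the clones against wild type, 0.067 in the withdrawal series and 0.078 in the return series.

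Intron reads come mostly from unspliced RNA, and 76 members had enough of them to be tested in the withdrawal series and 73 in the return series. Mrpl34 and Mrpl53 were not tested in either, nor Mrpl36, Mrpl41 and Mrpl43 in the return series. At 96 h, 22 members were lower in introns and 3 higher, where 21.8% of all genes were lower and 22.7% higher, and the median was -0.18. That count was 14 without 0 h library 1, and 31 lower and 1 higher with libraries centred on the median gene. At 24 h, 17 were lower and 3 higher, against 18.3% and 18.9% of all genes, and at 48 h 28 were lower and 2 higher, against 21.2% and 22.2%. On return of doxycycline, 42 were higher and 6 lower at 2.5 µg/mL, where 24.3% of all genes were higher and 22.1% lower. The median was 0.55 beside 0.05 for all genes. With 1 library left out that median ran from 0.49 to 0.61, and the number called higher could be smaller. At 0.1 µg/mL 1 was lower and 0 higher, where 5.01% of all genes were lower and 5.33% higher, and 12 members passed an unadjusted p below 0.05.

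Mrps28, a small-subunit protein, had the largest intron change of any member at 2.5 µg/mL. It had 291 and 275 intron reads in the control libraries, 319 and 323 with 0.1 µg/mL, and 63.9 and 57.7 with 2.5 µg/mL. The lower dose lay above the controls and the higher far below, with a change of -2.2 ± 0.173 (SE; limma adjusted p 1.08e-10), while its exon reads rose by 0.56 ± 0.105. Mrps35 and Mrpl1 also fell in introns, by 0.93 and 0.61. The largest intron rises at 2.5 µg/mL were those of Mrps26 (1.78), Mrpl40 (1.53) and Mrpl57 (1.41).

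At 96 h after withdrawal the largest intron falls were those of Mrpl44 (-0.95), Mrpl16 (-0.78) and Mrpl46 (-0.70), and the 3 that rose were Mrps15 (0.60), Mrpl45 (0.32) and Mrpl24 (0.21). Mrps22 went opposite ways in exons and introns: its introns changed by -0.47 at 96 h (limma adjusted p 0.00488) and by 0.93 at 2.5 µg/mL (limma adjusted p 5.59e-05). Mrpl32 had 91.7 and 62.7 intron reads in the return controls and 193 and 205 with 2.5 µg/mL, a change of 1.38 (limma adjusted p 2.06e-05) where its exons fell. At 96 h its intron change of -0.42 was not called (limma adjusted p 0.0685). Mrpl12, with an exon change of -0.99 at 96 h, had intron changes of 0.19 at 96 h and 0.63 at 2.5 µg/mL, and neither was called.

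**Figure D5:**
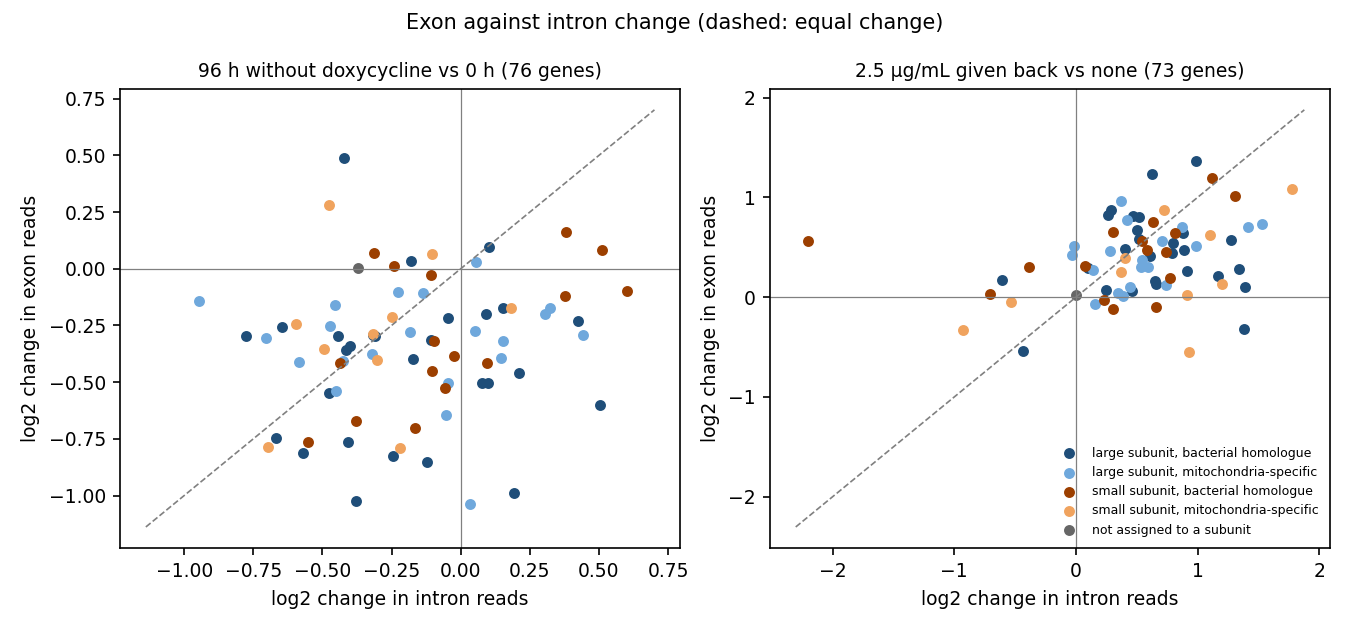
Log2 change in intron reads (x axis) against log2 change in exon reads (y axis) of the mitochondrial ribosomal protein genes at 96 h after withdrawal (76 genes) and at 2.5 µg/mL returned (73 genes), coloured by subunit and origin, with a dashed line of equal change. Mrpl12 lies at 0.19 for introns and at -0.99 for exons at 96 h, and Mrps28 lies at -2.2 for introns and 0.56 for exons at 2.5 µg/mL.

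The exon change less the intron change, taken library by library and centred on the median gene, is here called the exon-intron difference. At 96 h it was called lower for 11 members and higher for 3, where 4.31% of all genes were lower and 4.77% higher. Mrpl12 was lowest at -1.19, followed by Mrpl33 at -0.74 and Mrps15 at -0.70, and Mrpl32 (0.90), Mrpl44 (0.80) and Mrps22 (0.75) were higher. At 2.5 µg/mL 6 were lower and 4 higher, where 5.98% of all genes were lower and 5.36% higher. Mrpl32 was lowest at -1.66, then Mrps22 at -1.44 and Mrpl30 at -1.26, and Mrps28 was highest at 2.80, with Mrpl1 at 0.82 and Mrps9 at 0.73. These calls were not stable: without the filter on low values 1 member was lower and 1 higher at 96 h and 0 were called at 2.5 µg/mL, and leaving out any 1 library left 0 to 5 lower at 96 h and 0 at 2.5 µg/mL. Exon and intron columns carry no library names so their libraries were matched by how their counts deviate, and the matched libraries deviated together only weakly.

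Other genes of the same machinery were counted from lists made by their known roles, to be read against the 32.5% of all genes that were lower and 32.4% higher at 96 h, and the 31.8% higher and 32% lower at 2.5 µg/mL. Of 6 further ribosomal proteins under other names, 4 were lower and 1 higher at 96 h, and 2 lower and 3 higher at 2.5 µg/mL. Ptcd3, at -0.50, was the lowest at 96 h, and Aurkaip1, at 0.45, and Gadd45gip1, at -0.18, were called at 2.5 µg/mL. Chchd1 changed by -0.45 and 0.53, Oxa1l, which inserts new proteins in the inner membrane and is listed here with them, by 0.25 and -0.35, and Dap3 by -0.20 at 96 h and -0.03, not called, at 2.5 µg/mL. Of 23 assembly and ribosomal RNA modification factors, 14 were lower and 3 higher at 96 h, with a median of -0.38, and 15 higher and 3 lower at 2.5 µg/mL, with a median of 0.38. Gtpbp10, a GTPase of large-subunit assembly, had 2110 and 2013 reads at 0 h and 637 and 785 after 96 h, then 541 and 564 in the return controls and 1355 and 1412 with 2.5 µg/mL. Its changes were -1.54 and 1.32, while Mtg2, another assembly GTPase, went the other way at 0.99 and -0.95. At 96 h Rpusd4 (-0.59) and Mettl15 (0.71), and at 2.5 µg/mL Mettl17 (-0.95) and the methyltransferase Mrm1 (0.81), were also called.

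Of 14 translation factors, 7 were lower and 2 higher at 96 h, and 5 higher (35.7%, near the share of all genes) and 1 lower at 2.5 µg/mL. Tufm, the elongation factor that brings aminoacyl-tRNA to the ribosome, changed by 0.25 at 96 h and -0.02, not called, at 2.5 µg/mL. The release factors Mtrf1 (-0.81 and 0.84) and Mtrf1l (0.78 and -0.74) went opposite ways. Of 16 genes of mitochondrial transcription and RNA processing, 9 were lower and 2 higher at 96 h, and 8 higher and 3 lower at 2.5 µg/mL. Tfam, which packages mitochondrial DNA and starts its transcription, had 6087 and 5630 reads at 0 h and 3427 and 3659 after 96 h, and its changes were -0.73 and 0.66. Elac2, which cuts the ends of transfer RNAs, fell by 0.67 at 96 h, and Tfb2m, a factor of transcription start, went the other way at 0.46 and -0.77. Hsd17b10 rose by 0.30 at 96 h, and at 2.5 µg/mL Polg fell by 0.32 and Supv3l1 rose by 0.51. Of 13 chaperones and proteases, 7 were lower and 1 higher at 96 h, and 8 higher and 1 lower at 2.5 µg/mL; Hspd1 changed by -0.30 and 0.31, and Lonp1 stood at 0.01 and -0.01, not called. Hspe1 fell by 0.51 at 96 h, Htra2 stood at -0.37 and 0.45, and Spg7, a subunit of the m-AAA protease that trims the Mrpl32 protein, at 0.21 and -0.47.

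Of 10 regulators of mitochondrial biogenesis, 4 were lower and 1 higher at 96 h, and 4 higher and 2 lower at 2.5 µg/mL, so that the main direction held 40% of them each time, near the share of all genes. Myc, a transcription factor of growth, had 2801 and 3114 reads at 0 h, 1276 and 1042 after 24 h, 578 and 623 after 48 h, and 1081 and 951 after 96 h. In the return series it had 686 and 721 reads in the controls, 1684 and 1696 with 0.1 µg/mL, and 2024 and 1968 with 2.5 µg/mL. Like the summed members it was lowest at 48 h, and its changes were -1.54 at 96 h and 1.5 at 2.5 µg/mL. Ppargc1b rose at 96 h by 0.65 and fell at 2.5 µg/mL by 0.69, Pprc1 fell at 96 h by 0.19, and at 2.5 µg/mL Mycn rose by 0.33 and Gabpb2 fell by 0.24. Nrf1 changed by -0.17 at 96 h and stood at -0.05, not called, at 2.5 µg/mL.

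The cytosolic ribosomal proteins, the counterparts outside mitochondria, were taken by symbol alone, with no check of the role of each gene. They gave these counts, with the same shares of all genes as for the members. Of 81 tested, 28 (34.6%) were higher and 6 (7.41%) lower at 24 h, when 4 mitochondrial members were higher and 36 lower. At 48 h and at 96 h 72 of the 81 were lower and 1 higher, with medians of -0.26 and -0.34. From 48 h to 96 h 27 fell further and 5 rose, where the mitochondrial members had 3 lower and 18 higher. With doxycycline returned, 61 were higher and 2 lower at 0.1 µg/mL, and 61 higher and 8 lower at 2.5 µg/mL, with medians of 0.24 and 0.35. Examples are Rpl7l1 (-0.78), Rplp0 (-0.68) and Rpl10l (0.16) at 96 h, and Rpl27 (0.96), Rps2 (0.81), Rps15a (-0.95) and Rplp1 (-0.34) at 2.5 µg/mL. The difference between the 2 families was not tested.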

How the data were processed

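RNA of 23 libraries was sequenced after polyA selection with strand kept. The authors aligned reads with TopHat2 2.0.12, used mm10 and normalised with DESeq, per the submitters' processing notes; the sources used here do not name the counting program or annotation. Each column the authors deposited holds the mean signal of a group: exon or intron reads divided by a size factor, averaged over its libraries. Whole reads of each library were recovered from these means (404962 of 405064 values, 99.9748%). The 102 unsolved values, none of a member, are E7 genes that stayed out of the tests of the untreated lines. Libraries carry no names and are numbered by depth; nothing says they are separate cultures, so p-values measure the spread between libraries, which may be technical. Normalised reads plus 1 were taken to log2 for genes with a mean of 10 or more and fitted with limma 3.58.1 (R 4.3.3, trended prior), 1 fit per table over all its groups. Recovery and fit were tested on simulated data, where false calls at 96 h were a larger share than the threshold sets and most small changes in the clones were missed.

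Members and lists were chosen with earlier results of these data known. Genes named are the members with the largest called changes, members set by role, the extremes of level, and up to 2 called genes each way of each other list. Alternatives were total reads, refitted size factors, median centring, voom, other pseudocounts, no filter and leaving out each library; length centring and another exon-intron matching were added after seeing the data.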

Additional observations from a re-analysis of the deposited data

How the results depend on the processing

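No setting turned the sign of the members' median change in the withdrawal or return series. Length centring gave 9 higher and a median of -0.10 for 24 h, 7 and -0.27 for 48 h, 11 and -0.25 for 96 h, 5 and -0.16 for 48 h against 24 h, and 8 higher, 7 lower and 0.039 for 96 h against 48 h. On return it gave 5 lower and 0.17 at 0.1 µg/mL, 10 lower and 0.24 at 2.5 µg/mL, and 20 higher, 9 lower and 0.064 between doses; 6 were lower in the clones. It reversed Mrpl30 (0.0035), Mrps12 (0.23) and Mrps18a (0.0057) at 96 h, and Mrpl16 (-0.040) and Mrps36 (-0.25) at 2.5 µg/mL; the cause was not tested.

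Total reads gave medians of -0.42 (48 h), -0.28 (96 h) and -0.25 (48 h against 24 h), and on return 0.21 at 0.1 µg/mL, 0.37 at 2.5 µg/mL and 0.15 between doses, and for introns -0.16 at 96 h and 0.50 at 2.5 µg/mL. Median centring gave -0.35 at 96 h, 6 lower and 0.062 for 96 h against 48 h, 0.27 at 0.1 µg/mL, and for introns 1 higher and -0.24 at 96 h. Refitted size factors gave 0.49 and no filter 0.60 for introns at 2.5 µg/mL. For the exon-intron difference, no filter gave 1 higher and 1 lower at 96 h, and 0, 0 and -0.18 at 2.5 µg/mL; the other matching gave 6 lower at 96 h and 2 higher at 2.5 µg/mL. Scaling and voom do not apply to it, since it is centred per library.

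Leaving out 1 library gave these ranges: 2 to 6 higher at 24 h; a median of -0.34 to -0.29 at 96 h; -0.29 to -0.25 for 48 h against 24 h; 9 to 22 higher, 1 to 4 lower and 0.083 to 0.13 for 96 h against 48 h; 1 to 4 lower and 0.22 to 0.25 at 0.1 µg/mL; 0.40 to 0.45 at 2.5 µg/mL; and 2 to 6 lower between doses. Among untreated lines it gave a median of -0.19 to 0.24 for B9, 0 to 1 lower and a median of -0.35 to -0.11 for E7, 0 to 1 higher and 1 to 17 lower for the clones, and 0 to 3 higher, 0 to 9 lower and -0.26 to -0.051 for clones against E7. For introns it gave 1 to 4 higher, 14 to 24 lower and -0.22 to -0.15 at 96 h, and 0.49 to 0.61 at 2.5 µg/mL. For the exon-intron difference it gave 0 to 3 higher, 0 to 5 lower and -0.22 to -0.15 at 96 h, and 0 to 0 higher, 0 to 0 lower and -0.22 to -0.045 at 2.5 µg/mL. The lone library left is assumed to vary like the other groups. No paired analysis was possible because the columns carry no replicate numbers. The members' median standard error was 0.324 for the clones against wild type and 0.067 at 96 h.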
